A study of Mus musculus with 27 samples.

Results

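AP-1 is a family of dimeric transcription factors that joins a Jun protein to a Fos, Atf or second Jun protein through a leucine zipper. Many of its genes are immediate early genes, transcribed within minutes of growth factor, wound or stress signals without new protein synthesis, and their products bind short palindromic DNA elements. In the epidermis and hair follicle AP-1 is known for its part in keratinocyte differentiation, wound responses and the remodelling of chromatin in activated stem cells. Enzymatic dissociation of tissue is itself known to induce several of these genes.

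The 8 genes described here were chosen by name: the Fos family (Fos, Fosb, Fosl1, Fosl2), the Jun family (Jun, Junb, Jund) and Atf3, a stress-induced partner of Jun. All 8 were present in the RNA-seq table of 51906 gene symbols and all 8 were among the 15965 genes that passed its filter on low counts. All 8 were also present in each single-cell matrix.

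Cultured mouse hair follicle stem cells (HFSCs) were compared by RNA-seq in 4 groups of 2 libraries. Wild-type and Rxra cKO cells, taken from telogen skin at postnatal day 55, were grown in 3D in serum (FBS) or in a serum-free B-27 medium with all-trans retinoic acid and the protein kinase C inhibitor Go6976 (atRA+PKCi), so that the medium comparison covers removal of serum as well as the added compounds. The Rxra cKO mice carried Sox9-CreER, floxed Rxra and a Rosa26-YFP reporter, so that recombination depends on Sox9 promoter activity and on tamoxifen. Each genotype is represented by lines from 2 mice, so that genotype cannot be told apart from differences between those lines. Single cells came from back skin of 2 wild-type mice in anagen at postnatal day 32, and from hashtagged HFSC cultures of the same 2 mice in B-27 base medium, in atRA+PKCi, or in atRA+PKCi with added R-spondin (Rspo), BMP2/4, both, or both with a retinoic acid receptor inhibitor (RARi). In bulk samples fewer cells of a type and less RNA per cell cannot be told apart. All cultures, also those for RNA-seq, were dissociated with TrpLE-Express before RNA was collected, whereas back skin was digested with collagenase and trypsin.

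The RNA-seq libraries held 25150265 to 35879777 assigned reads. Keratin genes marked the cells as keratinocytes in every library (Krt14 at 5715 to 22341 CPM, counts scaled to library size), and the summed markers of other cell types were at 1.35 to 11.6 CPM for fibroblasts, 2.27 to 5.76 CPM for endothelium, 0.288 to 2.21 CPM for immune cells and 3.85 to 6.08 CPM for melanocytes, the last mostly from Mitf (3.08 to 5.47 CPM). Summed heat shock genes ranged from 4678 to 6738 CPM. Rxra itself, the targeted gene, stood at 149 and 122 CPM in the wild-type FBS libraries and at 97.1 and 95.6 CPM in the libraries labelled Rxra cKO in FBS (log2 fold change -0.49 ± 0.09 SE, edgeR adjusted p = 0.0026). In atRA+PKCi it stood at 147 and 143 CPM in wild-type and at 148 and 145 CPM in the libraries labelled Rxra cKO (log2 fold change 0.01 ± 0.09 SE, adjusted p = 0.93). A gene total also counts the parts of the transcript outside a deleted stretch, so these totals do not check the label, and the genotypes are named here only as labelled.

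The region upstream of each start is shown for 5 members, Fos as the type member and the 4 others with a promoter entry that differed between media in wild-type cells. Each line gives the 100 bases before the RefSeq start (GRCm38.p6), 5′ to 3′ on the gene's strand, with capitals marking the cyclic AMP element core TGACGT, its variant TGACATCA, the CCAAT box and the TATA box (TATAAA) on either strand.
Fos, chr12:85473790-85473889, plus strand: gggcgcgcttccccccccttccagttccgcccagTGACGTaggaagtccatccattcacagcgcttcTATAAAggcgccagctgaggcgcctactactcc
Jun, chr4:95052223-95052322, minus strand: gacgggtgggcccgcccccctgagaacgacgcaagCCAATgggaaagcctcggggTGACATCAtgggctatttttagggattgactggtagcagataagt
Atf3, chr1:191183334-191183433, minus strand: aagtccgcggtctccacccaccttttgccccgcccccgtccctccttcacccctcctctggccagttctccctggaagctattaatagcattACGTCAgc
Junb, chr8:84978749-84978848, minus strand: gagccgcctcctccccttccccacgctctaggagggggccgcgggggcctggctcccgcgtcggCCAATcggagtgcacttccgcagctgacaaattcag
Fosb, chr7:19310046-19310145, minus strand: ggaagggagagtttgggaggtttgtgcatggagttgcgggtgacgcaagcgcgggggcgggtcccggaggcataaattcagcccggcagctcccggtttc

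Over the 250 bases before the start, TGACGT, the core of the cyclic AMP response element, was found in Fos (61 to 66 bases before the start) and, on the opposite strand, in Atf3 (3 to 8 bases before it). It occurs in 6.47% of the 32851 promoter windows of the same length. TGACATCA, a variant element that can be bound by Jun and Atf2, was found 38 to 45 bases before the Jun start and occurs in 2.93% of windows. TATAAA (12.4% of windows) was found in Fos, CCAAT (33.8%) in Jun and Junb, and the GC box GGGCGG (32.7%), not capitalised above, in Fos, Fosb, Fosl2, Jun and Atf3. The full AP-1 element TGACTCA (4.46% of windows), the full TGACGTCA (1.55%), the CArG box bound by serum response factor (1.47%) and a retinoid direct repeat element (0.00913%) were not found in the windows of the 7 members in the table. Both strands were searched, and TGACGT lies within TGACGTCA. Bases farther upstream than 250 were not searched, so an element not found here can still lie beyond the window. The Jund window ends at base 70697738, whereas its annotated gene starts at 70698949. Those of Fosl2 and Atf3 lie inside their annotated genes, so these windows may miss other starts. A match is a description of the letters, not a bound site.

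In wild-type HFSCs, 3 of 8 members were higher and 2 of 8 lower in atRA+PKCi than in FBS. Fosb, Jun and Atf3 rose, Fosl1 and Junb fell, and Fos, Fosl2 and Jund did not pass the test (edgeR quasi-likelihood test, Benjamini-Hochberg adjusted p under 0.05). This is 5 of 8 members beside 53.9% of all 15965 genes tested, 27.2% higher and 26.6% lower, so the share called was near the background and the direction of single members carries the description. The median log2 fold change over the 8 members was -0.01, beside 0.03 over all genes.

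Fosb encodes a Fos protein with a strong transactivation domain and, by splicing, a truncated stable form. It was read at 66.2 and 46.1 CPM in FBS and at 436 and 443 CPM in atRA+PKCi. The groups lay far apart, a 7.82-fold difference (log2 fold change 2.97 ± 0.17 SE, 95% interval 2.59 to 3.34, adjusted p = 1.1e-06), and Fosb ranked 476 of 15965 genes by increase. Jun, the main Fos partner, was at 225 and 193 CPM in FBS and at 484 and 459 CPM in atRA+PKCi (log2 fold change 1.17 ± 0.14 SE, adjusted p = 0.00012). Atf3 moved by nearly the same amount, from 143 and 128 CPM to 308 and 309 CPM (log2 fold change 1.19 ± 0.10 SE, adjusted p = 1.1e-05).

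Fosl1 encodes Fra-1, a Fos protein without a transactivation domain that is abundant in migrating and wound-edge keratinocytes. It fell from 97.5 and 84.3 CPM in FBS to 17.7 and 16.7 CPM in atRA+PKCi (log2 fold change -2.40 ± 0.09 SE, adjusted p = 1.1e-07). Junb, a Jun protein that opposes Jun at some promoters, fell from 437 and 387 CPM to 218 and 199 CPM (log2 fold change -0.98 ± 0.09 SE, adjusted p = 3.0e-05). In neither gene did the groups overlap.

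In the remaining 3 members the groups overlapped. Fos was at 405 and 323 CPM in FBS and at 378 and 363 CPM in atRA+PKCi, with a log2 fold change of 0.02 and a 95% interval from -0.22 to 0.27. Fosl2, which encodes Fra-2, was at 206 and 168 CPM and then at 173 and 170 CPM (interval -0.36 to 0.10), and its call depended on 1 library: without wild-type FBS replicate 2 it was lower in atRA+PKCi (log2 fold change -0.28, adjusted p = 0.021). Jund, the Jun gene least tied to acute stimuli, was at 205 and 183 CPM and then at 211 and 165 CPM (interval -0.30 to 0.21).

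**Figure D1:**
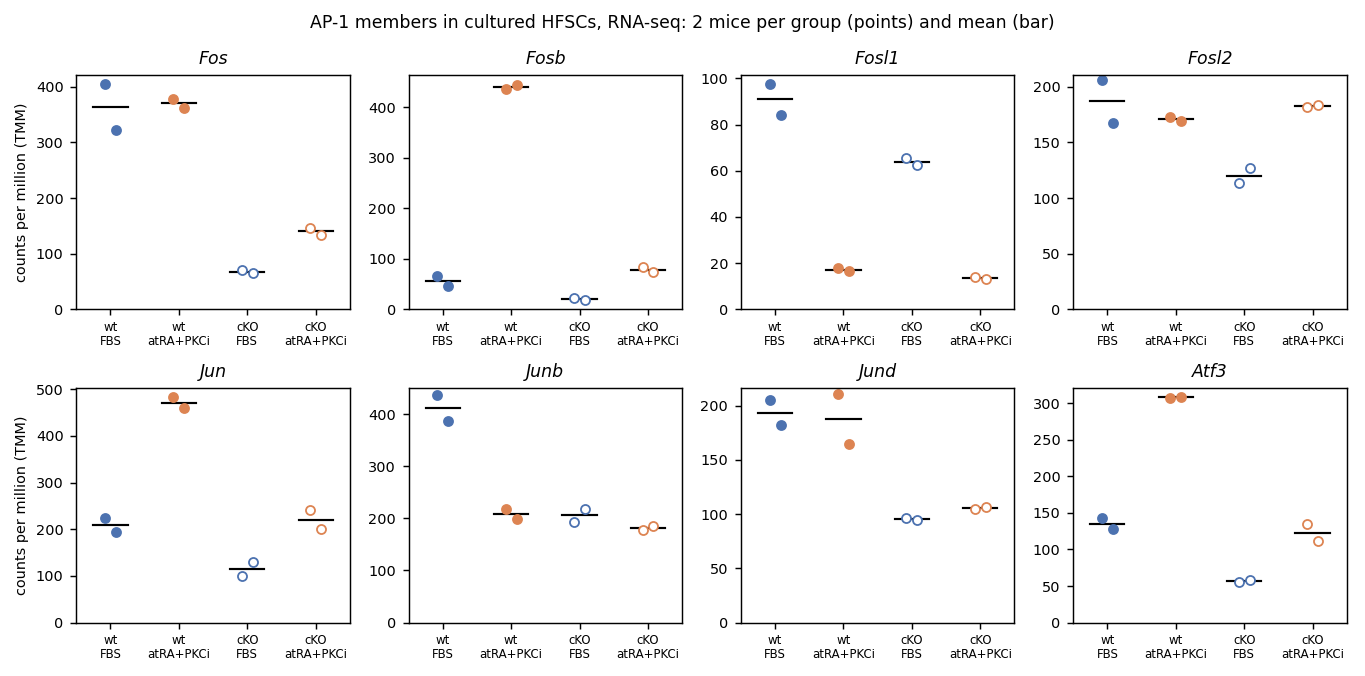
Expression of the 8 AP-1 genes in the 8 RNA-seq libraries, in CPM scaled by TMM on a linear axis that starts at 0. Points are the 2 mice of each group (filled, wild-type; open, Rxra cKO as labelled; blue, FBS; orange, atRA+PKCi) and bars are group means; Fosb, Jun and Atf3 are highest in wild-type cells in atRA+PKCi, and Fosl1 is high in both FBS groups.

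In the Rxra cKO-labelled cells the medium moved 6 of 8 members, 5 higher and 1 lower, beside 43% of all genes called (20.8% higher, 22.2% lower). Fos rose here, from 70.3 and 65.1 CPM in FBS to 147 and 133 CPM in atRA+PKCi (log2 fold change 1.05 ± 0.11 SE, adjusted p = 0.00011). Fosb rose from 22.0 and 17.9 CPM to 82.9 and 73.3 CPM (log2 fold change 1.97 ± 0.17 SE, adjusted p = 3.0e-05). The 2 Rxra cKO-labelled libraries in atRA+PKCi thus stood below both wild-type FBS libraries for Fos and above both for Fosb.

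Fosl2 rose from 113 and 127 CPM to 181 and 184 CPM (log2 fold change 0.60 ± 0.10 SE, adjusted p = 0.0015). Jun went from 100.3 and 129 CPM to 241 and 201 CPM (log2 fold change 0.94 ± 0.14 SE, adjusted p = 0.00069), and Atf3 from 55.02 and 57.6 CPM to 134 and 112 CPM (log2 fold change 1.13 ± 0.10 SE, adjusted p = 3.2e-05). Fosl1 fell from 65.5 and 62.6 CPM to 13.9 and 12.96 CPM (log2 fold change -2.25 ± 0.09 SE, adjusted p = 6.0e-07). Junb (194 and 218 CPM, then 177 and 185 CPM) and Jund (96.2 and 94.8 CPM, then 105 and 106 CPM) did not pass the test, with 95% intervals of -0.40 to 0.02 and -0.11 to 0.40.

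The medium effect itself differed between the genotypes for 4 of 8 members, beside 24.6% of all genes (11.3% with a larger and 13.3% with a smaller value in wild-type). The interaction, the wild-type log2 fold change minus that in Rxra cKO-labelled cells, was -1.02 for Fos (adjusted p = 0.0018), -0.73 for Fosl2 (adjusted p = 0.0063) and -0.80 for Junb (adjusted p = 0.0027). For Fosb it was 1.00 (adjusted p = 0.014), the larger increase being in wild-type cells, and this call was lost without Rxra cKO FBS replicate 1 (adjusted p = 0.070) or without Rxra cKO atRA+PKCi replicate 2 (adjusted p = 0.062). Fosl1 (interval -0.44 to 0.13), Jun (-0.21 to 0.67), Jund (-0.55 to 0.17) and Atf3 (-0.25 to 0.36) did not pass it. Without wild-type atRA+PKCi replicate 1 the Jund interaction passed (-0.42, adjusted p = 0.047).

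Between genotypes in FBS all 8 members were lower in the libraries labelled Rxra cKO, beside 42.8% of genes called and 20.5% called lower, and the median over the members was -1.01, beside 0.02 over all genes. Fos differed most, at 405 and 323 CPM against 70.3 and 65.1 CPM (5.38-fold lower, log2 fold change -2.43 ± 0.12 SE, adjusted p = 1.7e-06), and Fos ranked 173 of 15965 genes by decrease. Fosb had a log2 fold change of -1.50 ± 0.17 SE, Atf3 of -1.27 ± 0.10 SE, and Jund of -1.02 ± 0.11 SE, and Junb was 2.00-fold lower. Jun (-0.86), Fosl2 (-0.64) and Fosl1 (-0.51) differed less.

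In atRA+PKCi, 6 of 8 members were lower in the Rxra cKO-labelled libraries, beside 43.2% of genes called and 20.2% called lower, with a median of -0.96 over members and 0.00 over all genes. Fosb was 5.62-fold lower, at 436 and 443 CPM against 82.9 and 73.3 CPM (log2 fold change -2.49 ± 0.16 SE, adjusted p = 6.0e-06). Fos (-1.40 ± 0.11 SE), Atf3 (-1.32 ± 0.10 SE), Jun (-1.09 ± 0.14 SE) and Jund (-0.83 ± 0.11 SE) followed. Fosl1 was called at -0.35 ± 0.09 SE (adjusted p = 0.016), a call lost without Rxra cKO atRA+PKCi replicate 1 (adjusted p = 0.056), without replicate 2 of that group (adjusted p = 0.11) or without wild-type atRA+PKCi replicate 1 (adjusted p = 0.12). Fosl2 (interval -0.14 to 0.32) and Junb (-0.41 to 0.00) were not called, and Junb was called when only the 4 libraries compared were fitted (log2 fold change -0.21, adjusted p = 0.026). The comparisons share libraries with one another, so their values are not independent.

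**Figure D2:**
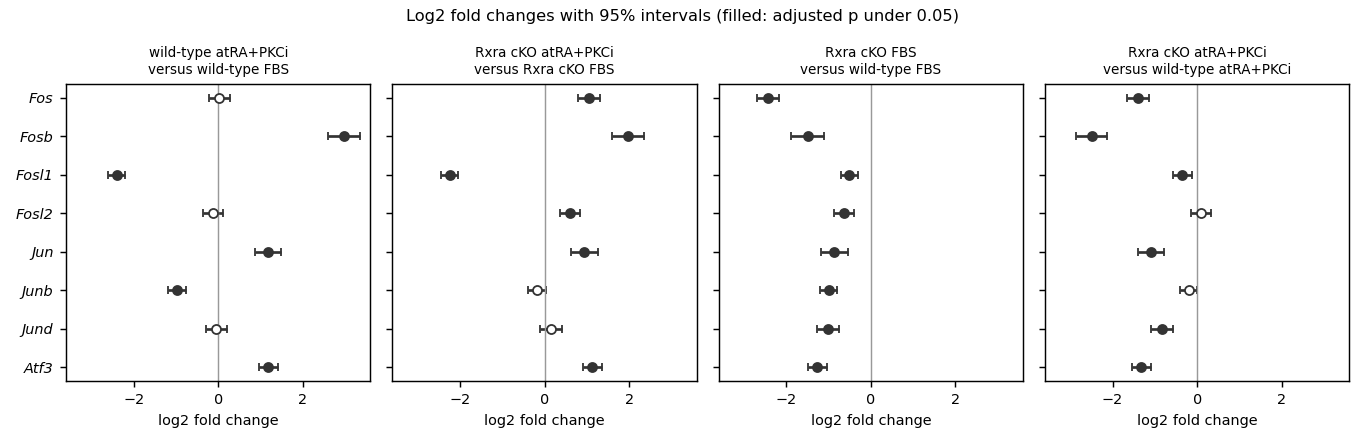
Log2 fold changes of the 8 AP-1 genes in the 4 pairwise comparisons of RNA-seq groups, with 95% intervals from the edgeR fit over all 8 libraries. Filled points passed an adjusted p under 0.05; all 8 are filled and left of 0 for Rxra cKO FBS versus wild-type FBS.

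On a scale that allows genes to be compared with each other, CPM per kilobase of exon, the make-up of both families differed between the media in wild-type cells. Fos held 68.3% and 67.5% of the Fos family sum in the wild-type FBS libraries, with Fosl1 at 19.0% and 20.4% and Fosb at 4.21% and 3.63%. In wild-type atRA+PKCi libraries Fosb held 27.2% and 28.3% and Fosl1 3.38% and 3.27%. In Rxra cKO-labelled atRA+PKCi libraries Fosb reached 13.1% and 12.5% and Fosl1 held 6.77% and 6.81%. In FBS the Rxra cKO-labelled libraries differed from this, with Fosl1 at 41.6% and 41.4% of the sum and Fos at 38.7% and 37.2%. In the Jun family, Junb was the largest share in both FBS groups (48.6% to 49.7%), whereas Jun held 40.7% and 43.7% and Junb 25.4% and 26.3% in wild-type atRA+PKCi. Junb was still the largest share, at 35.8% and 38.8% beside 35.0% and 30.4% for Jun, in the Rxra cKO-labelled libraries of that medium. Jund stayed between 29.2% and 33.9% of the Jun family in all 8 libraries. These shares are descriptions, and transcript length was taken as all annotated exons of a gene.

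**Figure D3:**
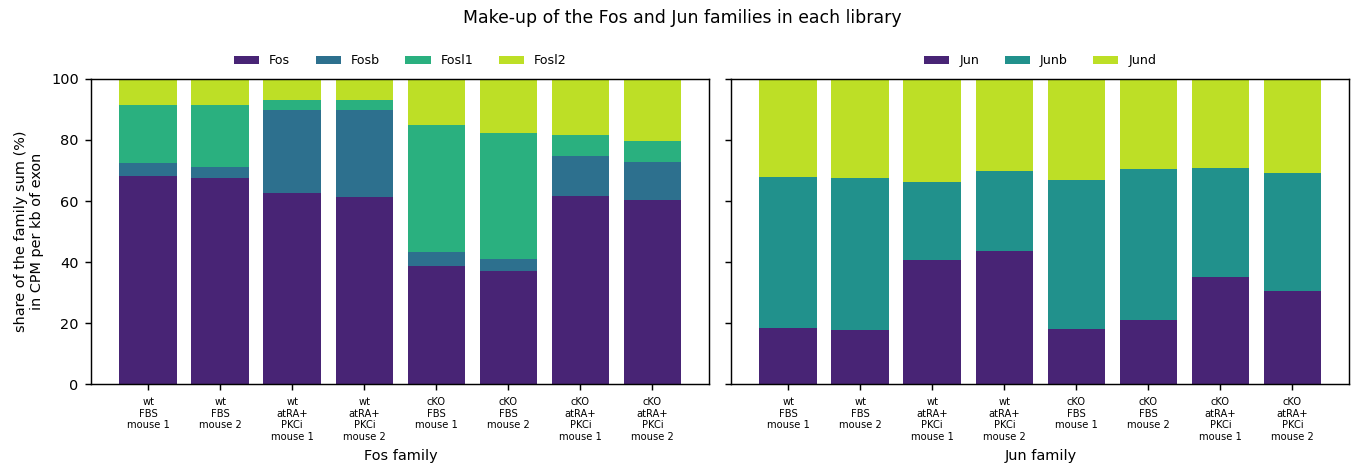
Share of each gene in the summed expression of the Fos family (left) and Jun family (right), in percent of CPM per kilobase of exon, for each of the 8 RNA-seq libraries. Fosb takes 27.2% and 28.3% of the Fos family in wild-type atRA+PKCi, and Jun 40.7% and 43.7% of the Jun family.

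Other genes of the AP-1 pathway were read from lists of partners, upstream kinases, feedback regulators, immediate early genes, heat shock genes and targets. These lists were chosen with earlier results of these data known, so their counts are descriptions and not a test of AP-1 activity. Of 21 target genes, 19 fell and 1 rose in wild-type atRA+PKCi (median log2 fold change -2.87), and 20 fell in the Rxra cKO-labelled cells (median -2.19). Over all genes 26.6% fell and 27.2% rose in the first comparison (median 0.03) and 22.2% fell in the second (median 0.02). The matrix metalloproteinase Mmp13 went from 2210 and 2387 CPM to 0.641 and 0.412 CPM, and Mmp3 from 535 and 509.9 CPM to 0.0641 and 0.158 CPM. Cd44, a hyaluronan receptor, fell by 0.72 on the log2 scale, and Ccnd1, which encodes cyclin D1, rose by 0.91. In atRA+PKCi 12 of the 21 target genes were higher and 3 lower in Rxra cKO-labelled than in wild-type cells (median 0.56), beside 23% and 20.2% of all genes (median 0.00).

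The lists that follow are for wild-type cells and stand beside the same 26.6% of all genes lower and 27.2% higher. Of 15 feedback regulators 9 fell and 1 rose (median -0.93). Among those with at least 5 CPM the nuclear phosphatases Dusp5 (114 and 111 CPM to 13.3 and 15.4 CPM) and Dusp4 (42.1 and 37.2 CPM to 9.21 and 9.31 CPM) fell most. Dusp8 (log2 fold change -0.93) and the mRNA decay factor Zfp36l1 (-0.28) fell least, and the 1 higher gene, Dusp2, had a mean of 0.293 CPM. Of 22 other immediate early genes 12 fell and 7 rose (median -0.63). Ier3 fell from 702 and 664 CPM to 163 and 164 CPM and Csrnp1 fell by 1.72 on the log2 scale, whereas the Yap targets Ctgf (16.5 and 16.2 CPM to 47.5 and 46.0 CPM) and Cyr61 (49.8 and 40.7 CPM to 88.3 and 93.2 CPM) rose.

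Of 26 kinases and nuclear targets upstream of AP-1, 12 fell and 2 rose (median -0.17). The p38 branch genes Mapk11 (log2 fold change -1.80) and Map2k6 (-1.49) fell most, and Map3k1 (0.73) and Rps6ka5 (0.39) were the 2 that rose. Among 10 tested bZIP partners 4 rose, among them Jdp2 (log2 fold change 0.58) and Atf7 (0.56), and 3 fell, among them Maff (-1.90). Heat shock genes gave 2 higher (log2 fold change 0.66 for Hspe1 and 0.62 for Hspd1) and 5 lower of 11, led by Dnajb4 (-1.16) and Hspb1 (-0.75), with a median of -0.01.

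In anagen back skin, 27233 cells formed 39 clusters, of which 25 were given a name from marker genes, forming 15 classes. The clustering used no AP-1, other immediate early or heat shock gene. The cells had been sorted as negative for CD45, CD31, CD140a and CD117, yet 31.8% were in fibroblast-like, 2.54% in immune-like and 0.764% in endothelium-like clusters. The fibroblast-like clusters led by Isg15, by Gm32014 and by Adamts16 each came almost wholly from 1 mouse (95 and 1916, 1514 and 27, and 1398 and 23 cells from mouse 1 and mouse 2), and the 2 matrices shared 62 cell barcodes. Levels below are CPM of UMIs summed over the cells of a class in each mouse, with no test. The part of the tissue digestion in these levels was not tested.

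Suprabasal epidermis-like cells (173 and 170 cells), the differentiating interfollicular and upper follicle keratinocytes marked by Krt1, Krt10 and Krt79, held the highest mean of 6 of 8 members among the named classes (4 of 8 with called doublets kept). The share of all genes that are highest in this class is not given here, so the count has no background beside it. Several members also correlate across clusters, as given below, so they are not separate observations. The named classes leave out the 26.1% of cells in the 14 unnamed clusters and pool 7 fibroblast-like clusters. Among all 39 single clusters, the suprabasal one was first for 3 members, Fosl1, Junb and Atf3, and came after unnamed or fibroblast-like clusters for Fos, Fosb and Jun. Atf3 was at 1404 and 1104 CPM there, and the next named class, endothelium-like, was at 417 and 429 CPM, with no overlap of the mice. An unnamed cluster, led by Pdzrn4 and described below, was at 1339 and 1005 CPM of Atf3 and overlapped the suprabasal one. In suprabasal cells Junb was at 2275 and 1599 CPM, against 1099 and 883 CPM in endothelium-like cells. Jun was at 2090 and 1784 CPM, against 1419 and 1281 CPM in fibroblast-like cells, and Fosb at 437 and 404 CPM, against 375 and 308 CPM. For Fos the mice of the first 2 classes overlapped (1853 and 1691 CPM, then 1792 and 1520 CPM in fibroblast-like cells). In the suprabasal cluster the other immediate early genes, summed, were at 6160 and 4422 CPM, and the heat shock genes at 4579 and 3539 CPM. In the outer root sheath-like cluster led by Edn2 these sums were 3698 and 2743 CPM and 3333 and 3191 CPM. Neither sum was particular to suprabasal cells, with some clusters higher and others lower. The fibroblast-like cluster led by Gm32014 had 7035 and 5996 CPM of the immediate early genes. The hair matrix-like cluster had 5220 and 4603 CPM of the heat shock genes.

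Fosl1 was the member most restricted to 1 named class. It reached 226 and 134 CPM in suprabasal epidermis-like cells and 20.6 CPM in both mice in hair medulla-like cells. In the other 13 named classes both mice stayed at or below 9.50 CPM. Unnamed clusters held it too, at 47.5 and 32.7 CPM in that led by Pdzrn4 and at 37.7 and 15.7 CPM in that led by Acsbg1. Erythroid-like cells, in which these genes are not expected and which show what free RNA can add, had 1.60 and 0 CPM of Fosl1, the count of 0 allowing up to 3.02 CPM. With called doublets kept, the suprabasal value fell from a mean of 180 to 114 CPM, still the highest of the 15 classes. The other members had levels in erythroid-like cells that were not negligible, for example 362 and 336 CPM of Fos and 515 and 220 CPM of Jun, so that lower levels of these in other classes cannot be read as expression.

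Fosl2 followed another order, with endothelium-like cells at 135 and 123 CPM, then hair medulla-like cells at 105 and 104 CPM and suprabasal epidermis-like cells at 81.9 and 73.1 CPM. As pooled classes, the first did not overlap the second, nor the second the third, whereas the third overlapped immune-like cells (92.0 and 50.4 CPM). Single clusters did overlap the endothelium-like one. The hair medulla-like cluster led by Csta1 was at 129 and 128 CPM of Fosl2. The mural or dermal sheath-like cluster led by Rgs5 was at 145 and 101 CPM. Among the named classes Jund was highest in fibroblast-like cells at 1291 and 1017 CPM, which overlapped the suprabasal class at 1080 and 922 CPM. Among single clusters an unnamed one led by Spp1 was first for Jund, at 1735 and 1210 CPM. At the other end, dermal papilla-like cells, the mesenchymal signalling centre of the follicle, had the lowest Jun (177 and 200 CPM), Jund (183 and 152 CPM) and Atf3 (66.9 and 37.6 CPM) of the 15 classes, and inner root sheath-like cells the lowest Fos (168 and 143 CPM) and Fosb (22.5 and 23.2 CPM). In each mouse these values lay below those of erythroid-like cells, so their order cannot be read as one of expression.

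**Figure D4:**
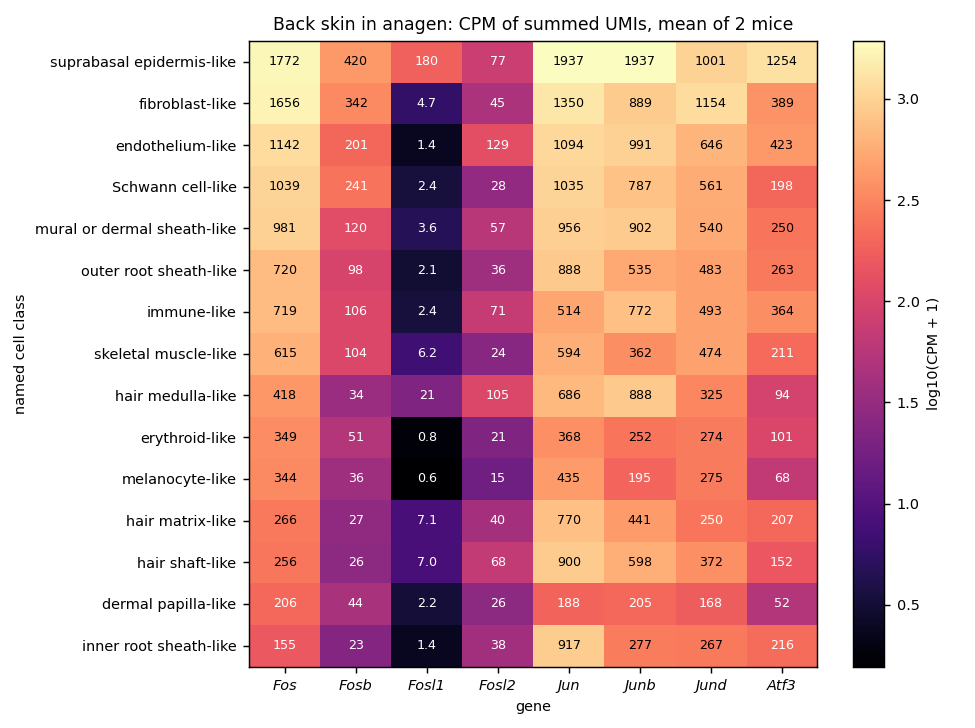
Mean CPM of the 8 AP-1 genes over the 2 mice in each of the 15 named cell classes of anagen back skin, coloured by log10(CPM + 1) and ordered by Fos. Suprabasal epidermis-like cells hold the highest value of Fos, Fosb, Fosl1, Jun, Junb and Atf3. Among these classes Fosl1 exceeds 20 CPM only there and in hair medulla-like cells.

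Within the hair follicle the members did not follow one order. Outer root sheath-like cells, the lineage nearest to the stem cells, had 838 and 601 CPM of Fos, above the erythroid-like level, whereas hair matrix-like (318 and 213 CPM) and inner root sheath-like cells were below it in both mice. Their Jun (994 and 783 CPM) overlapped that of inner root sheath-like cells (1009 and 825 CPM). Junb was at 957 and 818 CPM in hair medulla-like cells and at 319 and 236 CPM in inner root sheath-like cells, where erythroid-like cells had 346 and 158 CPM. An unnamed cluster led by Pdzrn4, Aqp3 and Adarb2 (86 and 58 cells) was not placed, in the follicle or outside it, by the marker lists. Npnt, Col17a1, Krt15 and Calml3 came next among its first genes. This cluster had 2499 and 1482 CPM of Fos and 600.4 and 545 CPM of Fosb. It had 1339 and 1005 CPM of Atf3 and 47.5 and 32.7 CPM of Fosl1. Its other immediate early genes, summed, were at 7255 and 4476 CPM, and its heat shock genes at 4709 and 3861 CPM. In the larger outer root sheath-like cluster led by Edn2 these sums were 3698 and 2743 CPM and 3333 and 3191 CPM. In the Pdzrn4 cluster the first sum overlapped that of the Gm32014 cluster, and the second that of the hair matrix-like cluster, both given above. Means of Fos over the 2 mice spanned 622 to 2657 CPM among the fibroblast-like clusters, the lowest (led by Adamts16) and the highest (led by Gm32014) both being clusters almost wholly of mouse 1.

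Across the 39 clusters, log2(CPM + 1) of Fos was most like that of Jund (Pearson r = 0.93), Zfp36 (0.91) and Fosb (0.89), Fosb most like Klf6 (0.89), Fos and Zfp36 (0.86), and Jund most like Fos, Zfp36 (0.89) and Fosb (0.84). Jun was most like Ier2 (0.83), Jund (0.80) and Junb (0.80), Junb most like Ier2 (0.89), Jun and Fos (0.78), and Atf3 most like Jun (0.79), Dnajb1 (0.73) and Irx3 (0.72). Fosl1 and Fosl2 had other neighbours: Clca2, Spink5 and H60c for Fosl1 (0.73, 0.72 and 0.72) and Coq10b, Nr4a1 and Rassf1 for Fosl2 (0.70, 0.68 and 0.65). The correlation with the sum of other immediate early genes ranged from 0.50 for Fosl1 to 0.88 for Junb, and that with summed heat shock genes from -0.21 for Fosb to 0.38 for Jun. In many clusters Fosl1 was read from few UMIs, for example 1 and 2 UMIs in the cluster led by Grm7. Its correlations therefore also carry counting error near the floor. Clusters share the 2 libraries and the digestion, so these values are descriptions over 8988 compared genes.

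The hashtagged cultures gave few cells: none tagged FBS, 3 in atRA+PKCi, and per mouse 5 and 10 in B-27, 5 and 6 in Rspo, 113 and 13 in BMP2/4, 92 and 27 in Rspo+BMP2/4 and 5 and 21 in Rspo+BMP2/4+RARi. None of the 8 members had an adjusted p under 0.01 and a change of more than 1 on the log2 scale in any of the 3 comparisons (edgeR on UMI sums per mouse). In BMP2/4 versus B-27, 5.71% of 6265 genes passed (0.431% higher, 5.28% lower). In the other comparisons 0% of genes passed with edgeR, and DESeq2 called 0 genes in both; 44 genes had an unadjusted p under 0.05 for Rspo+BMP2/4 versus BMP2/4 and 232 on adding RARi, none of them a member. DESeq2 called 0 members in all 3 comparisons.

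For BMP2/4 versus B-27, in which atRA+PKCi was added as well, the 2 mice of each condition did not overlap for any of the 8 members, which held for 63% of all genes. Atf3 was at 92.0 and 97.9 CPM in BMP2/4 and at 31.8 and 41.0 CPM in B-27 (log2 fold change 1.47, 95% interval 0.27 to 2.67, adjusted p = 0.11). Fosb was at 46.3 and 41.1 CPM against 0 and 22.8 CPM (log2 fold change 1.97, interval 0.49 to 3.45, adjusted p = 0.083), the count of 0 allowing up to 15.9 CPM. Fosl2 went the other way, at 55.2 and 66.6 CPM against 90.0 and 178 CPM (log2 fold change -1.08, interval -2.06 to -0.09, adjusted p = 0.17). These were the 3 members with an unadjusted p under 0.05. When cells with up to 20% mitochondrial UMIs were kept, Fosb was called (log2 fold change 2.75, adjusted p = 0.0083), with 509 genes called in all, beside 358 without them.

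Junb stood at 374 and 348 CPM in BMP2/4 and at 287 and 268 CPM in Rspo+BMP2/4 (log2 fold change -0.43, interval -1.47 to 0.61). On adding RARi to Rspo+BMP2/4, Jun stood at 72.8 and 264 CPM against 148 and 143 CPM (interval -0.95 to 1.41), so that the mice moved in opposite directions. In the 3 atRA+PKCi cells Jun was at 228 and 702 CPM and Fosl1 at 26.8 and 68.0 CPM, from 17, 31, 2 and 3 UMIs. Summed heat shock genes also differed between the conditions of the first comparison, at 3767 and 3847 CPM in BMP2/4 and 2022 and 2290 CPM in B-27, and their part in it was not tested.

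**Figure D5:**
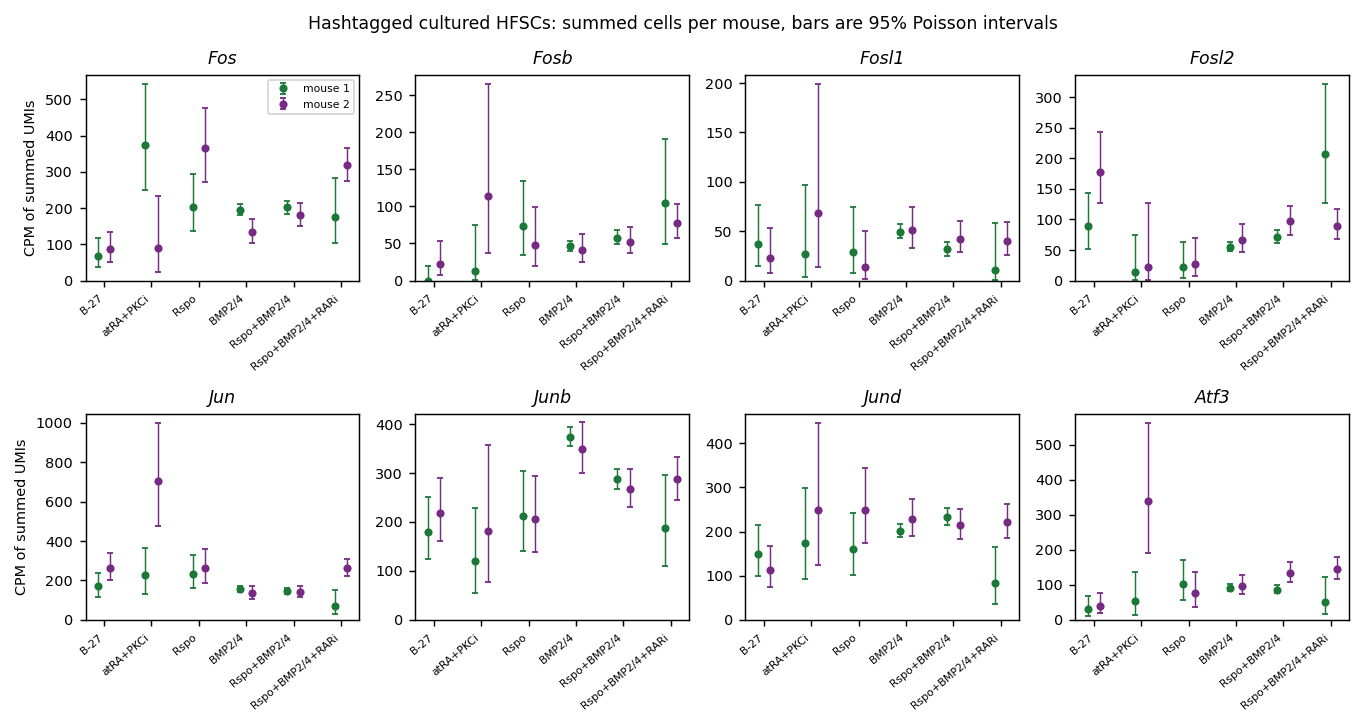
CPM of summed UMIs for the 8 AP-1 genes in each culture condition of the hashtagged HFSCs, by mouse (green, mouse 1; purple, mouse 2), with exact 95% Poisson intervals that cover counting error only. Intervals are wide in atRA+PKCi (2 and 1 cells), and the Junb points are higher in BMP2/4 than in the other conditions in both mice.

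Set beside the skin of the same 2 mice, cultured cells in BMP2/4 had 196 and 133 CPM of Fos, 156 and 135 CPM of Jun and 92.0 and 97.9 CPM of Atf3, where outer root sheath-like cells had 838 and 601, 994 and 783, and 312 and 214 CPM. Fosl1 was at 49.5 and 50.9 CPM in those cultured cells and at 2.98 and 1.2 CPM in outer root sheath-like cells. Culture, digestion and library cannot be told apart in this pairing, and it was not tested.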

How the data were processed

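RNA-seq used 8 libraries; per the labels the authors ran Salmon 1.4.0 on mm10, and deposited estimated counts per gene symbol and a second table of normalized counts (a depth-scaled signal). The authors ran Cell Ranger on the 10x libraries and deposited UMI counts; ambient RNA was not removed here. Counting by strand was not stated; Fosl1, Jun, Junb, Jund and Atf3 each overlap a gene on the opposite strand. ATAC-seq and CUT&RUN were not used here.

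Estimated counts were rounded and tested with edgeR 4.0.16 (R 4.3.3): filterByExpr, TMM, one quasi-likelihood fit of 4 groups, Benjamini-Hochberg adjustment over 15965 genes, adjusted p under 0.05. The 2 libraries of a group come from 2 mice by label, so p-values measure the spread between these mice and their lines. Within a genotype, same-numbered libraries come from the same mouse by label; deviations from group means correlated at r = 0.14 in wild-type and -0.00 in Rxra cKO-labelled libraries.

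Back skin cells with at least 500 genes, 1000 UMIs and at most 10% mitochondrial UMIs were kept (14458 of 16521 and 13915 of 16068), Scrublet calls (5.76% and 2.21%) were removed, and the rest were clustered with scanpy 1.11.5 (2000 variable genes, 30 components, resolution 1) and named from marker lists. Cultured cells (262 of 449 and 94 of 208 barcodes kept) were assigned by hashtag with Seurat 5.3.0, and UMIs summed over at least 5 cells of a condition in each mouse entered an edgeR fit of 6265 genes (adjusted p under 0.01, change of more than 1 on the log2 scale). Alternatives were DESeq2 1.42.0, limma 3.58.1 on the normalized counts (pseudocounts 1 and 0.5), filters, thresholds, the replicate block and leaving out each library. Fits were tested on simulated data.

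Members and gene lists were chosen with earlier results of these data known. Named list genes are, in the wild-type medium comparison, of each list's called genes with a mean of at least 5 CPM, the 2 at either end of the ranking by log2 fold change; likeness used genes over 50 CPM in at least 1 cluster, 3 per member. A gene the rule selects is not reported here. Promoter sequences are from RefSeq (7 of 8 members matched). Intervals on counts and limits from counts of 0 (3 counts) cover counting error only.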

Additional observations from a re-analysis of the deposited data

Results flagged for a closer look

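The effect of atRA+PKCi against FBS differed between the genotypes for 4 members by the test of the difference itself (edgeR quasi-likelihood interaction, wild-type log2 fold change minus that in the libraries labelled Rxra cKO, 2 mice per group). For Fos the difference was -1.02 ± 0.16 SE, from 0.02 in wild-type and 1.05 in Rxra cKO-labelled cells. For Fosl2 it was -0.73 ± 0.14 SE, from -0.13 and 0.60, and for Junb -0.80 ± 0.13 SE, from -0.98 and -0.19. For Fosb it was 1.00 ± 0.23 SE, from 2.97 and 1.97. Across all genes tested 24.6% had such a difference, and genotype cannot be told apart from the lines of the 2 mice that represent it.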

How the results depend on the processing

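Over the RNA-seq alternatives, the direction and call of each member in each comparison were the same in 547 of 576 cases. A stricter threshold was an adjusted p under 0.01 and a change of more than 1 on the log2 scale. It called 4, 4, 5, 4 and 1 of 8 members, and 2960, 1858, 1761, 2081 and 1134 of all genes. The order is wild-type medium, Rxra cKO medium, genotype in FBS, genotype in atRA+PKCi and interaction. Fits that leave out 1 library hold 1 library in a group, so their counts of called members and genes are not given here.

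Changes of sign were seen only in values that did not pass the test. The wild-type medium value of Fos was -0.0035 with DESeq2, -0.14 without wild-type FBS replicate 2 and -0.03 without wild-type atRA+PKCi replicate 1, and ranged from -0.14 to 0.19 as single libraries were left out. That of Fosl2 ranged from -0.28 to 0.027, above 0 only without wild-type FBS replicate 1. That of Jund ranged from -0.25 to 0.12, being 0.04 without wild-type FBS replicate 1 and 0.12 without wild-type atRA+PKCi replicate 2. The Atf3 interaction ranged from -0.070 to 0.15 and was -0.070 without Rxra cKO atRA+PKCi replicate 2, -0.02 without wild-type FBS replicate 2, and -0.13 with limma at either pseudocount. In cultured cells, Jun and Jund in Rspo+BMP2/4 versus BMP2/4 were at 0.0054 and -0.028 with hashtags called by majority, and Fosb and Fosl1 on adding RARi were at -0.10 and 0.26 with up to 20% mitochondrial UMIs. That limit also gave 1 member called for BMP2/4 versus B-27. The cause of these changes was not tested.

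With the mouse as a replicate block, 5, 6 and 4 members were called for the 2 medium effects and the interaction, as without it, with 8470, 6671 and 3615 genes in all, and the block changed no member's call in a culture comparison. In cultured cells the majority call gave 615 genes and the looser threshold 650 genes for BMP2/4 versus B-27, and without a filter on low counts 8 and 7 genes were called in the other comparisons. A stricter filter on cultured cells left too few cells for a value. In back skin, 6 members were highest in suprabasal epidermis-like cells, 4 with called doublets kept and 5 to 6 in a single mouse. No share of all genes stands beside these counts. Few cultured cells limit the precision of those comparisons.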
